A study of Mus musculus with 19 samples.

Results

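The kinesins are motor proteins that walk along microtubules or take them apart, and 33 of the 18553 genes measured in these mouse mammary tumours carried a platform symbol made of Kif and a digit. All 33 kinesin genes passed the requirement of a measured value on at least 70% of the arrays, that is on 14 of 19. They were divided by their known main role into 11 mitotic kinesins, 13 transport kinesins, 5 kinesins of the cilium and centriole, and 4 others. Kif14, Kif19a, Kif26a, Kif26b and Kif28 had no spot annotated to them alone and were not analysed here.

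RNA of 19 tumours was compared, 1 tumour per 2-colour oligonucleotide array. All tumours were mammary adenocarcinomas of FVB mice, and all carried C3(1)-Tag, the simian virus 40 T antigen driven by the rat C3(1) promoter, untreated tumours included. There were 7 tumours of mice without treatment and 12 of mice on carboplatin with paclitaxel (written carbo/taxol in the labels), namely 9 non-responders, of which 4 were taken at 2 weeks and 5 at 3 weeks, and 3 responders, of which 1 was taken at 2 weeks and 2 at 3 weeks. Tumour RNA carried Cy5 and a whole-mouse reference RNA carried Cy3 on every array, with no dye swap. The sources used here do not say how response was judged or how old the mice were.

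Mitotic kinesins build the spindle, move chromosomes along it and drive the final cut between daughter cells, and most are made mainly in dividing cells. Transport kinesins carry vesicles, organelles and proteins outward along microtubules at all times, and several are enriched in neurons. Paclitaxel binds and stabilises the microtubules on which both kinds of motor run, while carboplatin damages DNA. The T antigen binds and inactivates the retinoblastoma and p53 proteins, which restrain the cell cycle.

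Each value is a log2 ratio of tumour to reference RNA, so that 1 unit is a doubling. The sources used here do not state the log base or the direction of the ratio; tumour over reference is the likely direction, and all signs would turn with it. A ratio says how a gene's signal in a tumour stands against the same gene's signal in the reference, and does not rank genes by abundance. Spots of 1 gene were averaged. Of the 26 kinesins with more than 1 spot kept, 10 had spots of both signs in the difference between treated and untreated tumours. Bulk tumour RNA cannot tell fewer cells of a type from less RNA per cell.

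Some facts of the series bear on every comparison below. Markers of mammary epithelium were above the reference on average in every untreated tumour, with list means of 0.23 to 0.81 over 8 genes. The titles are written in 2 styles, with a hyphen or a low line after Tag; the hyphen style holds 2 untreated, 2 non-responder and all 3 responder tumours, and the labels do not say what the styles stand for. Non-responder replicate 1 and responder replicate 3 share a mouse number in their titles, so that 1 animal may have given tumours to both groups. The other tumours carry different numbers.

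The promoters of several mitotic kinesins carry the same short motif close to the start of the gene. They are shown here beside the slopes of these genes on other cell cycle genes, described below. Those slopes all had 1 sign in the fit over all tumours, though not with every choice of tumours or index. TTTGAA is the core of the cell cycle genes homology region, a DNA element through which many genes of the late cell cycle are repressed in resting cells, and CCAAT is the site of the factor NF-Y. The sequences are from RefSeq (GRCm38.p6), 75 bases before the annotated start and 25 from it on, read 5′ to 3′ in the direction of the gene. Capitals mark TTTGAA or CCAAT on either strand, so that TTCAAA and ATTGG are the same motifs on the opposite strand. Kif20b and Kif11 come first, then Kif22, Kif23, Kif18b and Kif4, all with TTTGAA; Kif18a has neither motif in this stretch and is shown as the mitotic kinesin with the steepest slope below, and Kif3a as a transport kinesin.
Kif20b, chr19:34922283-34922382, plus strand: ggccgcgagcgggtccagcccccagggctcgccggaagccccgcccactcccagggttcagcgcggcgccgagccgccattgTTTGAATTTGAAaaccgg
Kif11, chr19:37376307-37376406, plus strand: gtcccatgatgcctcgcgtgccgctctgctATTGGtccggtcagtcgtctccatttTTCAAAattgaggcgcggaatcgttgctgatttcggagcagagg
Kif22, chr7:127042396-127042495, minus strand: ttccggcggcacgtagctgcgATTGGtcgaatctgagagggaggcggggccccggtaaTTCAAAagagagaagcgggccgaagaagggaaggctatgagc
Kif23, chr9:61946775-61946874, minus strand: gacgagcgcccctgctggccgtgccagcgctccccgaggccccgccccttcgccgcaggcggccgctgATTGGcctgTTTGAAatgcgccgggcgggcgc
Kif18b, chr11:102925100-102925199, minus strand: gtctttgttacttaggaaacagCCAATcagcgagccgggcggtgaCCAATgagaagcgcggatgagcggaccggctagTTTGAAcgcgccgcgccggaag
Kif4, chrX:100625990-100626089, plus strand: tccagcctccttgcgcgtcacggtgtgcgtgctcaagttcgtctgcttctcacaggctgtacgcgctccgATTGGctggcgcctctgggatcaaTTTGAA
Kif18a, chr2:109280663-109280762, plus strand: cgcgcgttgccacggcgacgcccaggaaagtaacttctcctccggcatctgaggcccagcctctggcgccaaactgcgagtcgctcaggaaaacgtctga
Kif3a, chr11:53567294-53567393, plus strand: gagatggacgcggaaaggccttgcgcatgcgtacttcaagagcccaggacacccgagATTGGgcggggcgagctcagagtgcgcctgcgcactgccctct

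RefSeq windows reaching from 250 bases before to 50 bases after the start were at hand for 28 of the 33 kinesins. TTTGAA was present on either strand in 8 of 10 mitotic windows (80%), in 1 of 12 transport windows (8.33%) and in 17.9% of all 32851 windows. CCAAT was present in 6 of 10 mitotic windows (60%), in 4 of 12 transport windows (33.3%) and in 37.4% of all windows. The matches of TTTGAA lay near the start: 7 of 10 mitotic windows had one that began within 25 bases of it, against 0 of 12 transport windows and 2.7% of all windows, a distance chosen after the matches were seen. Kif20b, a motor needed for the last step of cell division, had TTTGAA beginning at bases 7 and 13 after the start, 1 directly after the other. In Kif11, the motor that pushes the spindle poles apart, it began 19 bases before the start on the opposite strand, and in Kif15, which can stand in for Kif11, also 19 bases before. A match is a run of letters, not a shown binding site, and it was not set against these tumours' expression by any test.

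In untreated tumours the mitotic kinesins stood above the whole-mouse reference and the transport kinesins did not. Of the 11 mitotic kinesins, 10 had a mean above 0 and 8 a mean above 1, that is 72.7% against 8.03% of all genes. Of the 13 transport kinesins, 6 had a mean above 0 and 0 had a mean above 1. The median of the means was 1.55 for mitotic kinesins, -0.12 for transport kinesins and -0.02 for all genes. These levels are a description of the untreated tumours against a reference and were given no test.

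Kif20b had the highest mean among the kinesins, 2.55 ± 0.90 (SD, n = 7), and Kif2c, which takes microtubules apart at the centromere, had 1.81 ± 0.66. Kif4, a motor of chromosome arms and the midzone, had 1.81 ± 0.50. Kif18a, which dampens chromosome movements at the plate, had 1.67 ± 0.79, its relative Kif18b 1.60 ± 0.41, and Kif20a, needed for cytokinesis, 1.55 ± 0.46. Neighbours in this order of 6 differed by less than the larger of their SDs. Kif18a was read by 1 kept spot. A second spot of Kif18a, measured on 12 arrays and not kept, stood at 0.34. Below them came Kif11 with 1.31 ± 0.62, Kif22, which pushes chromosome arms outward, with 1.18 ± 0.16, Kif15 with 0.90 ± 0.67 and Kif23, the motor subunit of centralspindlin, with 0.87 ± 0.79.

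Kif2b was the 1 mitotic kinesin with a mean below 0, at -0.17 ± 0.23 (SD, n = 6). Among transport kinesins the lowest means belonged to Kif5a at -2.53 ± 0.95, Kif5c at -2.12 ± 0.31 and Kif1a at -1.60 ± 1.40, motors known for transport in axons. Their spots stood far apart in these tumours: at -3.97 and -0.01 for Kif5a, at -3.83, -1.92 and 0.27 for Kif5c and at -3.01 and -0.19 for Kif1a, so that the level depends on which spot is read. Markers of neurons and Schwann cells were also low in all 7 untreated tumours, with list means of -3.84 to -1.92. Kif5b, the widely made heavy chain of conventional kinesin, had 0.12 ± 0.56 and Kif3a, a motor of cilia and vesicles, had 0.14 ± 0.13. Kif3b, the partner of Kif3a, was the 1 transport kinesin above 0 in all 7 untreated tumours, with a mean of 0.31 ± 0.16.

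Among the kinesins of the cilium and centriole, Kif7, a regulator of hedgehog signalling at the cilium tip, had the highest mean, 0.83. Kif9 had a mean of -0.40 that rested on untreated replicate 4 at -2.768; the other 6 tumours lay between -0.50 and 0.22, with a median over all 7 of -0.01. Kif6 had a mean of -0.20. Among the 4 others, Kif21a had a mean of -2.18, Kif12 of -1.45, Kif21b of -0.56 and Kif2a, which takes microtubules apart, of 0.09.

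**Figure D1:**
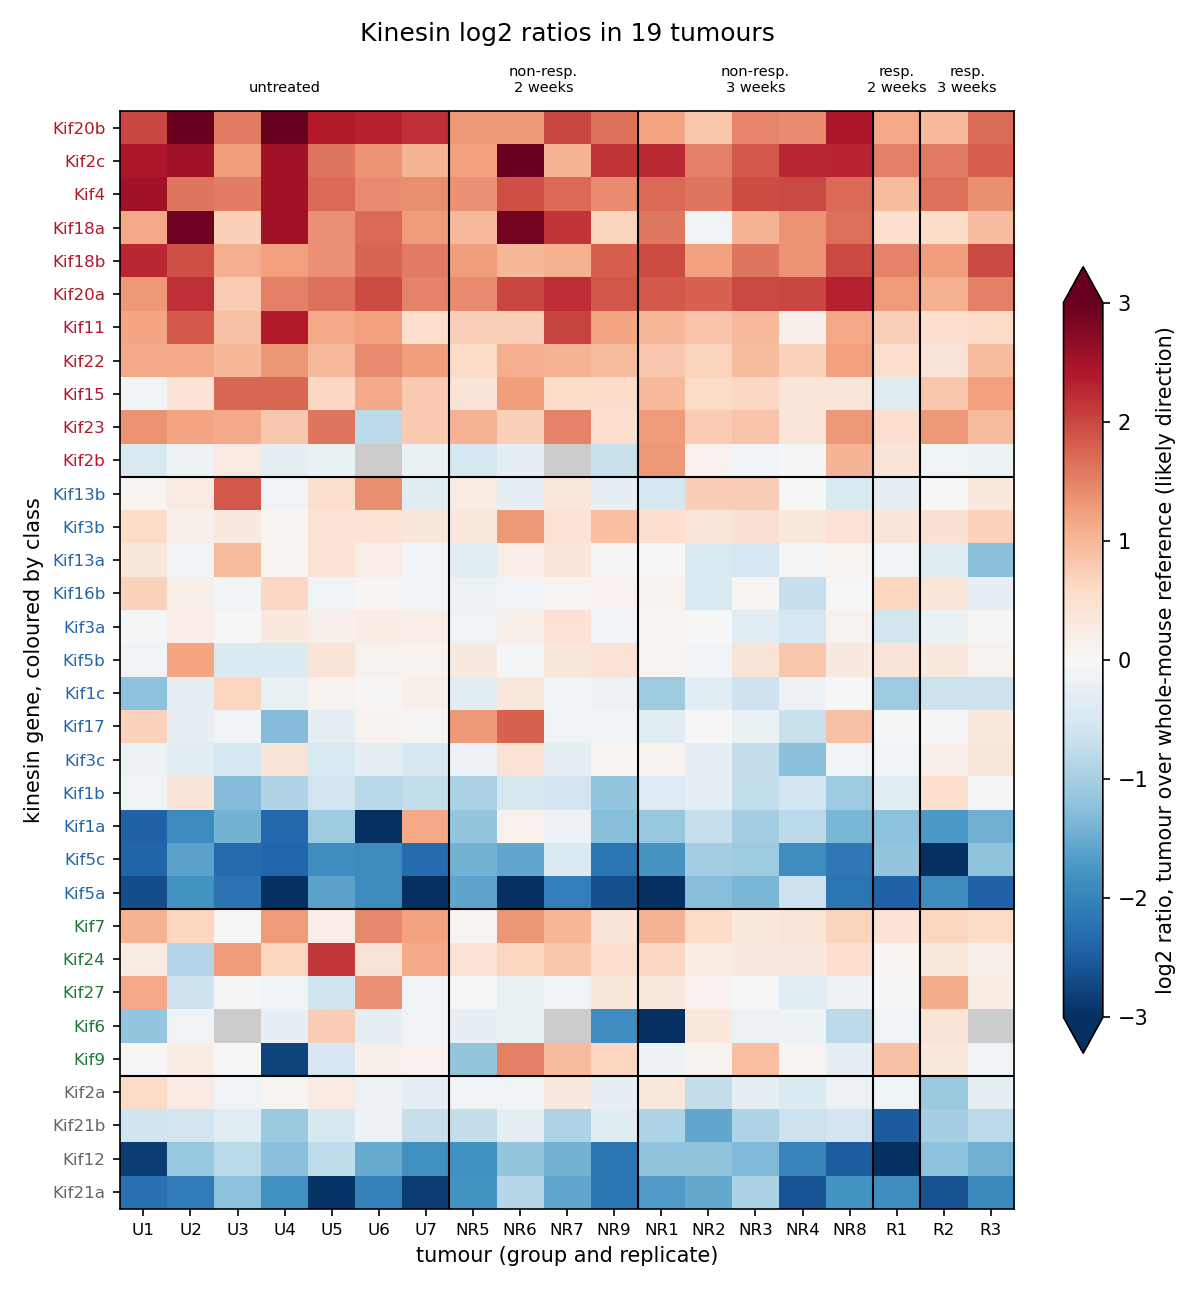
Heat map of the log2 ratio (colour, from -3 to 3, likely tumour over reference) of the 33 kinesins in rows, ordered by class, in the 19 tumours in columns, ordered by group; grey cells were not measured. The mitotic rows are mostly above 0 in all groups, and Kif5a, Kif5c, Kif1a and Kif21a are mostly below.

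The first comparison set the 12 treated tumours against the 7 untreated ones. With limma and Benjamini-Hochberg adjustment over all genes at 0.05, 1 of 33 kinesins passed, Kif20b, which fell; 3.65% of all genes passed in either direction and 1.44% fell, so that 1 of 33 is near the background. The median difference was -0.20 for the mitotic kinesins, of which 7 of 11 were negative, 0.11 for the transport kinesins, of which 5 of 13 were negative, and 0.03 for all genes. Both class medians turned with the title style: within the hyphen titles they were -0.51 for mitotic and -0.15 for transport kinesins, and within the others 0.01 and 0.07. The medians were -0.22 for kinesins of the cilium and centriole and -0.32 for the others, and 0 of these 9 genes passed.

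The log2 ratio of Kif20b in untreated tumours was 1.54 at the lowest, 2.30 at the median and 4.29 at the highest. In the non-responders the lowest, median and highest values were 0.83, 1.41 and 2.42. In the responders the values were 1.16 at 2 weeks, and 0.98 and 1.67 at 3 weeks. The groups overlapped, but all 12 treated tumours lay under the untreated mean.

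The difference in Kif20b was -1.10 ± 0.29 (limma's SE), a 2.14-fold lower ratio, with an adjusted p of 0.0417 in limma with Benjamini-Hochberg. All 3 spots of Kif20b had a negative difference, at -0.81, -1.46 and -1.01. The call sat close to the threshold: leaving out 1 array at a time, Kif20b passed in 5 of 19 fits, with differences of -1.27 to -0.81 and limma adjusted p between 0.0229 and 0.104. Leaving out untreated replicate 2, the highest tumour, gave -0.81 with an adjusted p of 0.0725, and leaving out the pair of tumours that share a mouse number gave -1.09 with an adjusted p of 0.0665. Within the hyphen titles the difference was -1.98 (adjusted p = 0.370 in limma), and within the other titles it was -0.66 (adjusted p = 0.231); with the title style as a covariate it was -1.09 (adjusted p = 0.0459).

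Kif22 and Kif13a also had an unadjusted p under 0.05 in the same direction, making 3 of 33 kinesins, all lower, against 8.45% of all genes lower at that level. Kif22 ranged from 0.98 to 1.41 in untreated tumours with a median of 1.13, from 0.60 to 1.22 in non-responders with a median of 0.94, and was 0.51, 0.40 and 0.93 in the responders. The difference was -0.35 ± 0.13 (limma adjusted p = 0.127), with 11 of 12 treated tumours under the untreated mean. All 3 responders lay below the lowest untreated tumour, but the share of all genes for which this held was not counted. Kif22 was also the steadiest of the kinesins: its SD within groups was 0.21, and 1.75% of all genes had a lower one. Kif13a, a transport kinesin that carries endosomes toward the plasma membrane, had a difference of -0.46 ± 0.20 (limma adjusted p = 0.196).

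The other named kinesins did not pass. Kif11 differed by -0.43 ± 0.24 (limma adjusted p = 0.337), with 11 of 12 treated tumours under the untreated mean. Kif20a differed by 0.22 ± 0.20 (adjusted p = 0.574), with -0.25 within the hyphen titles and 0.50 within the others, and Kif23 differed by 0.05 ± 0.26 (adjusted p = 0.934). Of the 3 spots of Kif23 1 was measured on 14 arrays, and the 2 spots measured on every array gave -0.09. Among transport kinesins, Kif5c differed by 0.51 ± 0.29 (limma adjusted p = 0.348), Kif13b by -0.46 ± 0.27 (adjusted p = 0.362), Kif3a by -0.22 ± 0.14 (adjusted p = 0.388) and Kif5b by 0.15 ± 0.19 (adjusted p = 0.707). Spots disagreed in sign for all 4: at -0.21 and 0.51 for Kif5b, at 0.53, -0.41 and 0.85 for Kif5c, at 0.35 and -0.68 for Kif13b and at -0.51 and 0.06 for Kif3a.

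Of the proteins that work with mitotic kinesins, 1 of 13 measured partners of the spindle and midzone fell and 0 rose, with a median difference of -0.29, beside 1.44% of all genes that fell. This was Incenp, the scaffold of the chromosomal passenger complex, which differed by -0.64 ± 0.17 (limma adjusted p = 0.0390). Cenpe, a kinesin of the kinetochore whose symbol lacks Kif, was 1.38 at the lowest, 1.88 at the median and 2.80 at the highest in untreated tumours, and 0.88, 1.36 and 1.90 in treated ones. Cenpe fell by 0.70 ± 0.18 (limma adjusted p = 0.0399). It was the 1 that passed of 3 measured kinesins whose symbols lack Kif and a digit. Of these 3, 2 had a positive difference, 1 of them with an unadjusted p under 0.05, and the median was 0.24. Both Incenp and Cenpe were under the untreated mean in 12 of 12 treated tumours.

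Of the 12 measured partners that link kinesins to cargo, such as the light chains and Kifap3, 0 passed in either direction, with a median difference of -0.01. Of 9 measured cell cycle genes used as a proliferation index (Mki67, Top2a, Ccna2, Cdk1, Bub1, Ttk, Foxm1, Cdc20 and Ube2c), 0 passed, with a median of -0.16. Macrophage markers differed in the same comparison: the mean of the 5 genes measured of 7 was 0.64 to 1.47 in untreated and 1.10 to 2.09 in treated tumours, and Fcer1g and Lyz2 rose (limma adjusted p = 0.0155 and 0.0463). Of all genes 2.21% rose. Of the other marker lists, endothelium had 2 of 5 genes that rose, Eng and Vwf, and multiciliated cells 1 of 6, Tppp3. Mammary epithelium had 1 of 8, Krt14, while 4 of the 8 had a negative difference, down to -1.30 for Elf5 (limma adjusted p = 0.0994). The fibroblast, skeletal muscle, neuron and T cell lists had 0. The part of these cells in the kinesin values was not tested.

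**Figure D2:**
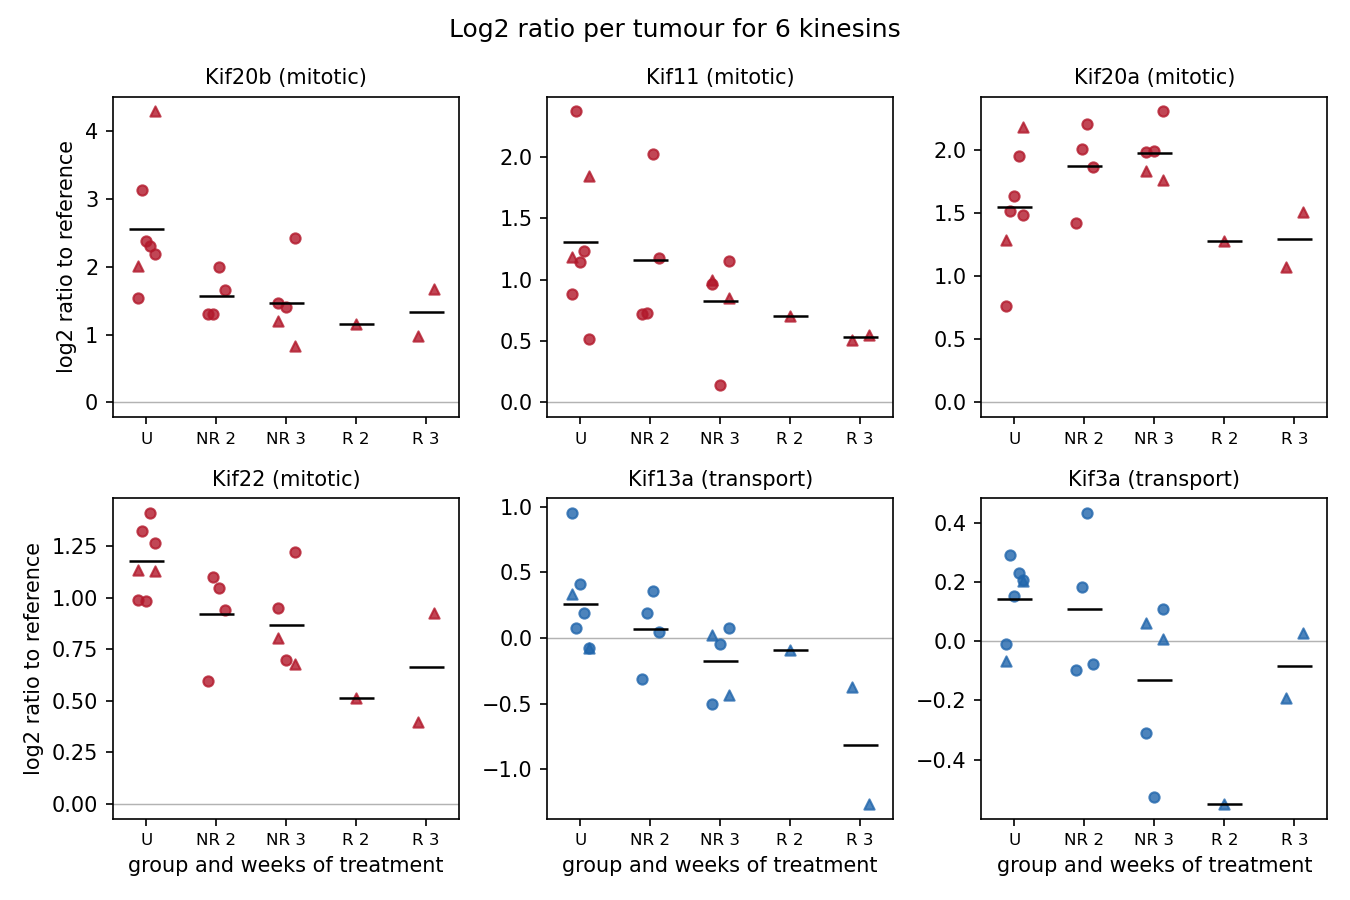
Log2 ratios (vertical axis, likely tumour over reference) of Kif20b, Kif11, Kif20a, Kif22, Kif13a and Kif3a in untreated, non-responder and responder tumours, 1 mark per tumour, triangles for hyphen titles, circles for the other titles and bars for group means. Kif20b lies lower in treated groups with overlap, and Kif20a is highest in non-responders.

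The 9 non-responders were then set against the untreated tumours. In limma 0 of 33 kinesins passed after Benjamini-Hochberg adjustment, where 1.53% of all genes did, and 3 had an unadjusted p under 0.05, where 17.3% did. Kif20b differed by -1.04 ± 0.32 (limma adjusted p = 0.0920), with 9 of 9 non-responders under the untreated mean. Kif22 differed by -0.29 ± 0.13 (adjusted p = 0.276). Kif20a differed by 0.39 ± 0.18 (adjusted p = 0.287) and was above the untreated mean in 8 of 9 non-responders; the difference was 0.06 within the hyphen titles and 0.50 within the others.

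Transport kinesins had a median difference of 0.02 in that comparison and mitotic ones of -0.13; within the hyphen titles these were -0.06 and -0.42, and within the others 0.07 and 0.01. The transport kinesins with the smallest p were Kif5c at 0.62 ± 0.31, Kif1a at 0.76 ± 0.44 and Kif13a at -0.33 ± 0.19 (limma adjusted p from 0.312 to 0.411). The 3 spots of Kif5c gave 0.29, -0.29 and 1.32; the first was measured on every array and the others on 14 and 16. The difference of Kif5c was 0.19 with zeros kept as values. Kif1a, an axonal motor of synaptic vesicle precursors, did not pass with all tumours (limma adjusted p = 0.3997), and passed once untreated replicate 7 was left out, with a difference of 1.22 and an adjusted p of 0.0483. Kif11 differed by -0.34 ± 0.26, Kif23 by 0.06 ± 0.28, Kif5b by 0.16 ± 0.21 and Kif3a by -0.17 ± 0.14.

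The 3 responders were set against the untreated tumours in the same fit, and 0 of 33 kinesins passed in limma, where 0.0755% of all genes did. At an unadjusted p under 0.05 there were 7 kinesins, 6 lower and 1 higher, against 16.1% of all genes, 7.22% lower and 8.93% higher. Kif13a was -0.09, -0.37 and -1.27 in the responders and -0.07 at the lowest untreated tumour, so that only a narrow gap parted the groups. The share of all genes without overlap was not counted. The difference of Kif13a was -0.84 ± 0.27 (limma adjusted p = 0.125), and its 3 spots gave -1.59, -0.74 and -0.18. Kif22 differed by -0.56 ± 0.18 (adjusted p = 0.130) and Kif20b by -1.28 ± 0.43 (adjusted p = 0.145). The other 4 were Kif21b at -0.86 ± 0.32, Kif2a at -0.59 ± 0.25, Kif1c, a carrier between Golgi and cell edge, at -0.66 ± 0.32, and Kif1b, a carrier of mitochondria and vesicles, at 0.63 ± 0.30. The difference of Kif21b came from 1 spot, measured on 16 arrays and in 2 of 3 responders, at -3.96, while the 2 spots measured on every array gave 0.16 and -0.001. The 3 spots of Kif1c gave 0.04, -1.15 and -0.89. Within the hyphen titles, 3 responders against 2 untreated tumours, the differences were -0.71 for Kif13a, -0.52 for Kif22, -1.88 for Kif20b, -0.84 for Kif21b, -0.93 for Kif2a, -0.03 for Kif1c and -0.08 for Kif1b, whose sign turned.

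The mitotic kinesins had a median difference of -0.33 in responders, with 9 of 11 negative, and the transport kinesins one of 0.14, with 4 of 13 negative. Within the hyphen titles, which hold all 3 responders, the mitotic median was -0.52 and the transport median turned to -0.08, with 4 of 13 positive. Kif11 differed by -0.72 ± 0.35 (limma adjusted p = 0.316), with all 3 responders under the untreated mean, at 0.71, 0.51 and 0.55. Kif20a differed by -0.26 ± 0.25, Kif23 by 0.05 ± 0.38, Kif5b by 0.14 ± 0.28 and Kif3a by -0.38 ± 0.20. The mean of 5 skeletal muscle markers was -1.56, -0.98 and -3.24 in the responders against -5.61 to -2.63 in untreated tumours, so that 2 of 3 responders lay above the untreated range. The proliferation index was 0.65, 0.70 and 1.01 in the responders against 1.10 to 1.62 in untreated tumours, so that these groups did not overlap. How many other lists or genes lacked overlap was not counted. Of its 9 genes 0 passed (smallest limma adjusted p = 0.126). The index ran from 0.87 to 1.57 in the non-responders, so that it also reached under the untreated range there. Fibroblast markers had list means of -0.74, -0.83 and -3.04 in the responders against -3.32 to -1.59 in untreated tumours, so that 2 of 3 responders lay above the untreated range. Elf5, a mammary luminal regulator, was the 1 gene of the marker lists that passed, with a mean of -0.57 in responders and 2.19 in untreated tumours (limma difference -2.75 ± 0.48, adjusted p = 0.0455). The part of muscle, stromal, epithelial and dividing cells in these differences was not tested.

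Responders and non-responders were compared directly, which is also the test of whether their differences from untreated tumours differ. In limma 0 of 33 kinesins and 0% of all genes passed after adjustment, and 3 of 33 kinesins had an unadjusted p under 0.05, where 6.33% of all genes did. Kif20a was 1.28, 1.07 and 1.51 in the responders and 1.43, 1.99 and 2.31 at the lowest, median and highest non-responder. The difference was -0.64 ± 0.24 (limma adjusted p = 0.676), with 3 of 3 responders under the non-responder mean and 1 of them above the lowest non-responder. Kif1b was -0.34, -0.03 and 0.52 in the responders and -1.16 to -0.30 in the non-responders, a difference of 0.74 ± 0.29 (limma adjusted p = 0.692); the groups overlapped through 1 responder. The third was Kif21b at -0.66 ± 0.31 (limma adjusted p = 0.770), from 1 spot measured on 16 arrays, at -3.31, while the 2 spots measured on every array gave 0.40 and -0.14.

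Of the mitotic kinesins 10 of 11 had a negative difference, with a median of -0.28. Of the transport kinesins 10 of 13 did, with a median of -0.09, and of all 33 kinesins 26 did. Among all genes 48.9% had a positive difference, with a median of -0.01. Within the hyphen titles 1 of 11 mitotic kinesins was positive, and the transport median turned to 0.08. In the same comparison 9 of 9 genes of the proliferation index had a negative difference, with a median of -0.47. All 5 skeletal muscle markers had a positive one, with a median of 1.11, and 3 of them had an unadjusted p under 0.05. Their part in the kinesin differences was not tested. The other named kinesins did not pass: Kif13a differed by -0.51 ± 0.26, Kif1c by -0.50 ± 0.31, Kif4 by -0.38 ± 0.25 and Kif22 by -0.28 ± 0.18. The sign of Kif1c turned with the title style as a covariate, at 0.05, and the difference was -0.07 within the hyphen titles. Kif11 differed by -0.39 ± 0.34, Kif23 by -0.01 ± 0.37, Kif5b by -0.01 ± 0.27 and Kif3a by -0.21 ± 0.19. All 3 responders have hyphen titles; within that style, with 2 non-responders, Kif20a differed by -0.51 and Kif1b by 0.39, and with the style as a covariate Kif1b differed by 0.18.

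**Figure D3:**
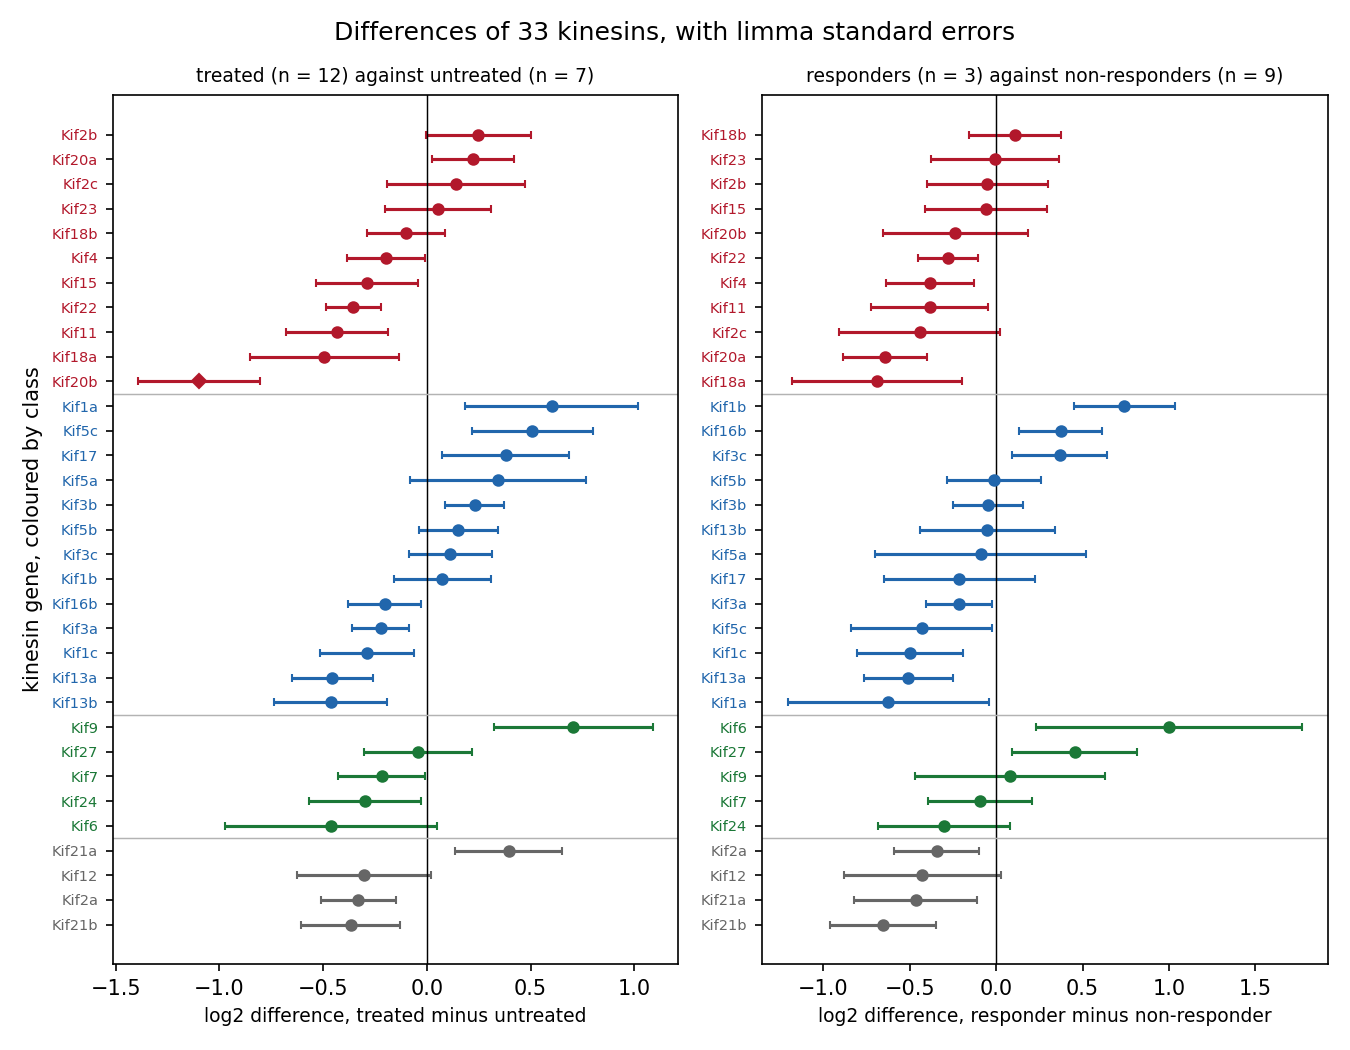
Differences in log2 ratio of the 33 kinesins with limma's standard error, treated minus untreated tumours and responders minus non-responders, grouped by class; a diamond marks a difference that passed the threshold. Kif20b, at -1.10 for treated minus untreated, is the 1 kinesin marked. For responders minus non-responders, 10 of 11 mitotic and 10 of 13 transport kinesins lie under 0.

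Time on treatment was compared within the 12 treated tumours, with response in the model. In limma 0 of 33 kinesins and 0% of all genes passed, and 0 of 33 kinesins had an unadjusted p under 0.05, where 4.46% of all genes did. The median difference, 3 weeks minus 2 weeks, was 0.08 for mitotic kinesins, -0.20 for transport kinesins and -0.04 for all genes. The transport median turned with the title style: it was 0.20 within the hyphen titles, with 8 of 13 positive, and -0.23 within the others, with 3 of 13 positive. The mitotic median, with 6 of 11 positive, was 0.16 within the hyphen titles, with 9 of 11 positive. The hyphen fit rests on 1 tumour of 2 weeks, a responder, since both hyphen non-responders were taken at 3 weeks. With response in the model, the hyphen medians set that tumour against the 2 responders of 3 weeks. After quantile normalization the mitotic median over all treated tumours was 0.30, with 9 of 11 positive. Of these kinesins 2 had an unadjusted p under 0.05 upward, where 2.84% of all genes had one. The kinesins with the smallest p were Kif13a at -0.36 ± 0.21, Kif4 at 0.27 ± 0.16 and Kif2b at 0.56 ± 0.35 (limma adjusted p = 0.940 each). Among the next, Kif18b differed by 0.29 ± 0.22, Kif17 by -0.56 ± 0.39 and Kif1a by -0.38 ± 0.26. Kif11 differed by -0.30 ± 0.26, Kif20a by 0.08 ± 0.18, Kif23 by 0.13 ± 0.24, Kif5b by -0.01 ± 0.18 and Kif3a by -0.08 ± 0.19.

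Non-responders of each time were then set against the untreated tumours. At 2 weeks 0 of 33 kinesins passed in limma, beside 0.0593% of all genes, and at 3 weeks 0 of 33, beside 0%. Kif20b was 1.31, 1.30, 2.001 and 1.65 at 2 weeks, a difference of -0.98 ± 0.40, and 1.19, 0.83, 1.46, 1.41 and 2.42 at 3 weeks, a difference of -1.08 ± 0.38. The 2-week values lay within the range of the 3-week ones. Unadjusted p under 0.05 was reached by 14.9% of all genes at 2 weeks and 12.2% at 3 weeks. At 2 weeks Kif3b and Kif17, a motor of cilia and dendrites, had such a p beside Kif20b, with differences of 0.42 ± 0.18 and 0.87 ± 0.39. At 3 weeks Kif2b did beside Kif20b, with a difference of 0.62 ± 0.26. The other named kinesins at 2 weeks were Kif22 at -0.26 ± 0.17, Kif20a at 0.33 ± 0.23, Kif5c at 0.72 ± 0.39, Kif11 at -0.15 ± 0.32, Kif23 at 0.07 ± 0.36, Kif5b at 0.13 ± 0.26 and Kif3a at -0.03 ± 0.18. At 3 weeks they were Kif20a at 0.43 ± 0.22, Kif13a at -0.44 ± 0.23, Kif16b at -0.37 ± 0.21, Kif3a at -0.28 ± 0.17, Kif11 at -0.49 ± 0.30, Kif23 at 0.05 ± 0.33 and Kif5b at 0.18 ± 0.25. The single responder taken at 2 weeks allowed no test of time within responders.

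The last comparison asked which kinesins varied from tumour to tumour with other cell cycle genes. For each gene, limma gave a slope on the proliferation index of 9 cell cycle genes, none of them a kinesin, with the 3 groups in the model, so that the slope describes variation within groups; index and kinesins were read on the same arrays. After Benjamini-Hochberg adjustment over 18544 genes 0 of 33 kinesins and 0% of all genes passed. All 11 mitotic kinesins had a positive slope, with a median of 0.82 log2 units per log2 unit of the index, beside 0.09 for transport kinesins and 0.004 for all genes. At an unadjusted p under 0.05, 7 of 11 mitotic and 1 of 13 transport kinesins sloped upward, against 4.7% of all genes. Of the 13 spindle and midzone partners 12 had a positive slope, with a median of 0.91, and 7 sloped upward at that level. Positive slopes were had by 0 of 5 skeletal muscle, 0 of 5 macrophage, 0 of 4 T cell and 1 of 6 fibroblast markers. Among mammary epithelium markers 5 of 8 were positive. The part of these cells in the kinesin slopes was not tested.

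Kif18a had the steepest slope of the kinesins, 2.76 ± 0.52 (limma adjusted p = 0.147), and its p ranked 4 among all genes. This slope rests on the 1 kept spot of Kif18a. The values of Kif18a ran from 0.71 to 2.93 in untreated tumours and from -0.14 to 2.87 in non-responders. They were 0.47, 0.56 and 0.93 in responders. Kif2c followed with 2.10 ± 0.62 (limma adjusted p = 0.250), then Kif20b with 1.78 ± 0.57 (adjusted p = 0.300), Kif11 with 1.29 ± 0.48 (adjusted p = 0.381) and Kif22 with 0.64 ± 0.25 (adjusted p = 0.413). Kif20a had 0.82 ± 0.36, Kif4 0.82 ± 0.38 and Kif23 0.60 ± 0.61. Of the transport kinesins, Kif3c sloped at 0.96 ± 0.40, Kif5a at -2.14 ± 0.90, Kif3a at 0.53 ± 0.29 and Kif5b at -0.03 ± 0.46. The 2 spots of Kif5a, at -3.97 and -0.01 in untreated tumours, were measured on 19 and 15 arrays. Its slope ran from -3.55 to -0.89 over the alternatives other than leaving out 1 array. Transport kinesins sloping downward at an unadjusted p under 0.05 numbered 1. There were 0 with zeros kept, each spot centred before averaging, 1 spot per gene or quantile normalization. There were also 0 within the hyphen titles, with Mki67 alone as the index and over the untreated tumours alone.

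The count with an unadjusted p under 0.05 upward changed with the tumours and the index. In the 12 tumours without the hyphen 10 of 11 mitotic slopes were positive and 5 had such a p, where 4.92% of all genes did; in the 7 hyphen tumours 11 of 11 were positive and 0 had one, where 1.56% did. Over the untreated tumours alone 9 of 11 were positive and 4 had one, where 2.58% did. Without the 2 arrays farthest from the median of the index 11 of 11 were positive and 5 had one, where 4.4% did. With Mki67 alone as the index 8 of 11 were positive and 1 had one, where 2.27% did. The slope of Kif18a was 2.64 and 2.86 within the title styles, 1.73 with zeros kept as values and 0.79 with Mki67 alone, where that of Kif20b was -0.02. The transport median turned to -0.10 within the hyphen titles and to -0.29 over the untreated tumours alone. Kif18a, with the steepest slope, has no TTTGAA in its window, and Kif20b has it at both bases given above. A link between motif and slope was not tested.

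**Figure D4:**
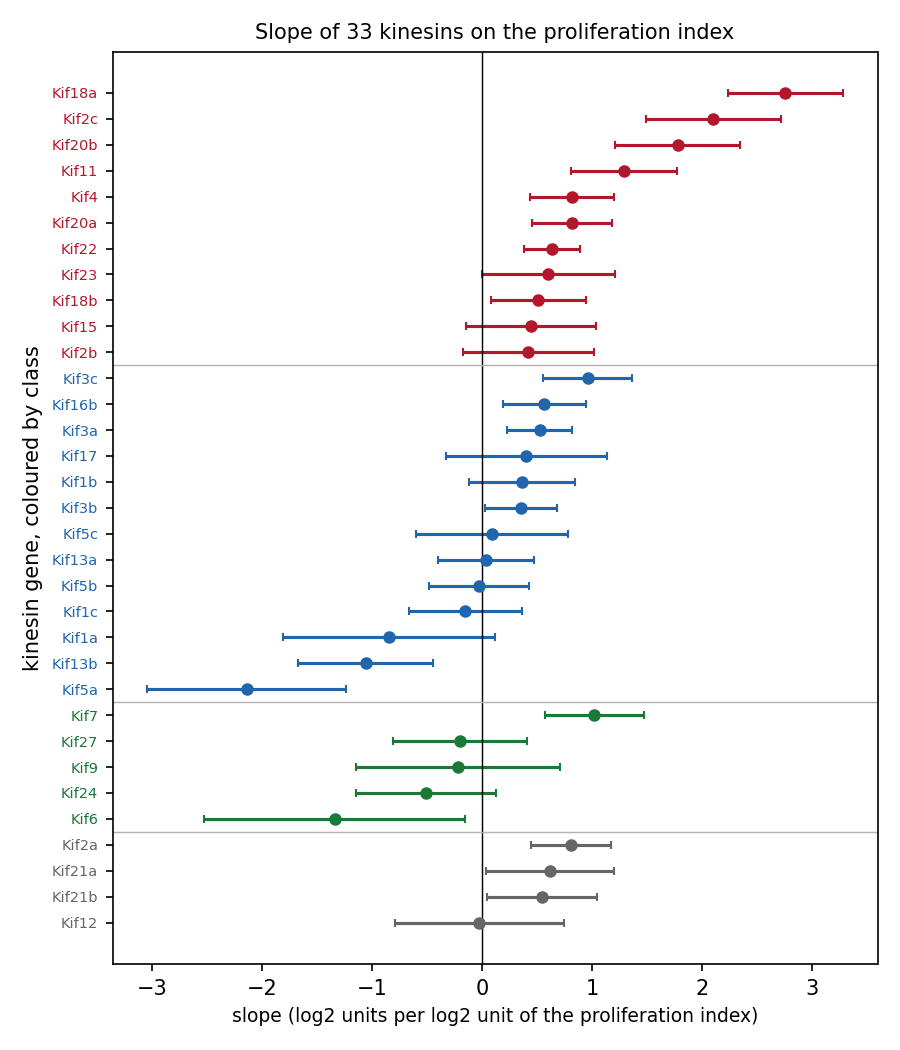
Slopes of the 33 kinesins on the proliferation index in log2 units per log2 unit, with limma's standard error, coloured by class. All 11 mitotic slopes are above 0, up to 2.76 for Kif18a, and the transport slopes run from -2.14 to 0.96. The lowest is that of Kif5a, whose 2 spots stood far apart in level.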

How the data were processed

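RNA of 19 tumours was measured on 1 two-colour array each. The authors deposited 1 log2 ratio per spot and array; the scale is inferred from the values, and the sources used here do not give the scanner, background correction, normalization or filters. Exact 0 was taken as not measured. Of 45220 spots, 33653 name 1 gene in the platform annotation; 32472 of these, measured on 14 or more arrays, were kept and averaged into 18553 genes, each array as deposited, with array medians of -0.052 to 0.023. The number of arrays limits the precision.

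Groups came from the labels. limma 3.58.1 in R 4.3.3 (lmFit, eBayes, two-sided, Benjamini-Hochberg over all genes, threshold 0.05) was tested on simulated data first. Treated and untreated tumours were compared in a fit of 2 groups, response in 1 of 3 groups, time among treated tumours with response as covariate. Alternatives covered zeros, filters, spots, scaling, title style and each array left out. Kinesins named are those that passed, otherwise up to 3 mitotic and 3 transport kinesins with the smallest p, and Kif11, Kif20a, Kif23, Kif5b and Kif3a throughout; Kif21b and Kif2a, the slopes of Kif22 and Kif4, and the levels in untreated tumours, were added after their values were seen. The kinesins, lists and tests were chosen with earlier results of these data known. The p-values set each difference or slope against the spread between these tumours, which limma moderates with that of all genes. The 2 tumours that share a mouse number were fitted as independent.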

Additional observations from a re-analysis of the deposited data

Results flagged for a closer look

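In 4 of 66 groups of 6 to 9 measured tumours, each of another kinesin, a single tumour lay farther from the next than Dixon's critical value; chance flags about 1 group in 20. Kif23 was -0.786 in untreated replicate 6, with the next value at 0.781. Kif2c was 4.046 in non-responder replicate 6, with the next at 2.274. Kif3c was 0.394 in untreated replicate 4, with the next at -0.158, and in the same tumour Kif9 was -2.768, with the next at -0.503.

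Kif2b, read by 1 spot, lay on opposite sides of the untreated mean in non-responders of 2 and 3 weeks, which are different tumours. All 3 measured at 2 weeks lay below it (-0.54, -0.30 and -0.66), and all 5 at 3 weeks above it (1.29, 0.12, -0.12, -0.06 and 1.02, against a mean of -0.17). The means differed by 0.95. That difference itself was not tested within non-responders. Over all treated tumours 3 weeks minus 2 weeks gave 0.56 ± 0.35 in limma (adjusted p = 0.940). This turned sign, to -0.525, in 1 of 11 alternatives other than leaving out 1 array. Responders went the other way, with 0.39 in the single one of 2 weeks and -0.15 and -0.12 at 3 weeks.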

How the results depend on the processing

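Between treated and untreated tumours, the count of kinesins passing was 1 and became 0 without both tumours that share a mouse number, 0 within the hyphen titles and 0 within the other titles; fewer tumours were fitted in each. Leaving out 1 array gave 0 to 2 kinesins, with Kif1a beside Kif20b once untreated replicate 7 was left out, and 0 to 1 for non-responders against untreated tumours, where it was Kif1a. Under each of the other alternatives these counts, and those of the other comparisons, stayed the same, and no difference that passed turned its direction.

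Counts over all genes moved more. For treated against untreated tumours 678 genes passed, but 1313 with only spots measured on every array, 2 within hyphen titles and 230 within the others, and 217 to 1183 leaving out 1 array. For non-responders 283 passed, against 694 with such spots, 184 with 1 spot per gene, 170 without the shared-mouse tumours, 0 within hyphen titles and 33 to 607 leaving out 1 array. For responders 14 passed, against 39 with zeros kept, 366 with spots measured on every array, 45 after quantile normalization, 1 with the title style as a covariate, 47 with trend and robust eBayes, 5 without the shared-mouse tumours, 0 within hyphen titles and 3 to 396 leaving out 1 array. Responders against non-responders gave 0, and up to 12. Non-responders at 2 weeks gave 11, against 155 with spots measured on every array and 0 within the titles without a hyphen, and at 3 weeks 0 against 29. The cause was not tested.

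Centring each spot before averaging, and the fits within title styles other than for treated against untreated tumours, were chosen after seeing the data. Quantile normalization lowered the mitotic kinesins sloping upward at an unadjusted p under 0.05 from 7 to 4, while the share of all genes fell from 4.7% to 2.25%; leaving out the shared-mouse tumours also gave 4, with 4.35% of all genes. No paired analysis was possible because replicate numbers were given in accession order and pair nothing; a block on the 1 shared mouse number was not fitted. Low spots cannot be told from unmeasured ones, since no signal over background was used here.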
